A study of Homo sapiens with 135 samples.

Results

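On day 4 of neural induction, 4462 CTCF regions of BPK25-treated H9 cells, 30.8% of the 14500 CTCF regions called under that treatment, had no CTCF peak in untreated or DMSO cells on day 0, 4 or 9. They were selected on CTCF peak calls, as the distinct intervals of the day 4 BPK25 CTCF peak list that overlapped, by at least 1 bp, no peak of the 6 CTCF lists of untreated (WT) and DMSO cells on days 0, 4 and 9. Every CTCF value of the lists that made it is given as a description with no test. The other 10038 regions of the same list, called the remaining regions here, each overlapped at least 1 of those control peaks. MBD3, TET1, TET2 and TET3 lists, and the day 0 and day 9 BPK25 CTCF lists, took no part in the choice.

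H9 is an established human embryonic stem cell line. Its cells were profiled by ChIP-seq, which maps where a protein sits on DNA, on days 0, 4 and 9 of neural induction in a medium with SMAD inhibition, without treatment (WT), with DMSO, or with 20 µM BPK25 renewed in the daily medium. All groups are the same line, and all day 4 and day 9 groups went through the same induction. CTCF and MBD3 were profiled in WT, DMSO and BPK25 cells, and TET1, TET2 and TET3 in DMSO and BPK25 cells. Each of the 36 peak lists was called on 3 replicates pooled, and the replicates are not stated to be separate cultures. Each list is thus 1 value with no replicate error. The Wilson 95% intervals below cover counting error only. Together the lists held 833373 regions, between 321 and 84203 each, and they state no sequencing depth.

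CTCF is a zinc finger protein that binds a long DNA motif, halts cohesin and so anchors chromatin loops, and its binding at many sites is sensitive to DNA methylation. MBD3 is a subunit of NuRD, a complex that joins nucleosome remodelling with histone deacetylation and acts in the exit of stem cells from pluripotency. TET1, TET2 and TET3 oxidise 5-methylcytosine and open the way to its removal. BPK25 is a small molecule known for causing loss of NuRD subunits.

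The choice of regions was decided mostly by the 2 day 4 control lists. Of the 14500 regions, 54% had a day 4 DMSO CTCF peak and 45.5% a day 4 WT CTCF peak. The day 9 control lists held a peak at 15.2% (DMSO) and 11.4% (WT), and the day 0 control lists at 6.26% and 0.841%. Another 834 regions lacked a peak in both day 4 control lists but had one on day 0 or 9, and were left out of the 4462 for that reason. Among the remaining regions, 3707 were found in a single control list and 28 in all 6.

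A day 4 CTCF list of either control treatment also held many regions of its own. With the treatments exchanged, 7774 of 18222 day 4 WT regions (42.7%) had no peak in the 6 DMSO and BPK25 CTCF lists, and 9033 of 20675 day 4 DMSO regions (43.7%) had none in the 6 WT and BPK25 lists. The share found only under BPK25 was thus lower than either. When each day 4 list was cut to its 14500 strongest regions, the shares were 40.5% for WT, 35.0% for DMSO and 35.2% for BPK25. A day 4 CTCF region seen in 1 treatment alone was not particular to BPK25 by these counts.

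The regions found only under BPK25 were the weak end of their list. Their median fold enrichment, the fragment pileup at the summit over the local background, was 3.91 (quartiles 3.43 and 4.56), against 4.52 at the remaining regions. Their median −log10 q was 3.14, against 9.31. The median pileup recovered from the deposited values was 12 fragments over a background of 2.45, against 29 over 5.62 at the remaining regions. A single summit made up 95.2% of these regions, against 76.0% of the remaining ones, and the median widths were 227 and 286 bp. Regions found only in WT or only in DMSO were also weak by −log10 q. Their medians were 3.00 and 3.06, against 6.66 and 7.91 at the other regions of their lists. Their median fold enrichment was 4.25 and 4.31, against 3.78 and 5.25. By fold enrichment the regions found only in WT were thus not the weak end of their list.

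When the BPK25 list was split by −log10 q into 4 strength groups of 3625 regions, regions found only under BPK25 made up 54.9% of the weakest group, then 42.4% and 18.8%, and 6.95% of the strongest. These were 1991, 1537, 682 and 252 regions. The groups differed in background as well as in enrichment. From the weakest, the regions found only under BPK25 had a median background of 2.26, 2.19, 3.77 and 15.3 and a median fold enrichment of 3.42, 4.29, 5.21 and 5.51. The median background at the remaining regions was 3.01, 3.20, 5.55 and 17.7, and their median fold enrichment 3.19, 3.96, 4.78 and 5.79. Within a group, fold enrichment was thus higher at the regions found only under BPK25 in all but the strongest group. A −log10 q of at least 5 was reached by 1119 of the 4462 (25.1%) and by 66.9% of the remaining regions. A fold enrichment of 10 was reached by 12 of the 4462 (0.269%) and by 142 of the remaining regions (1.41%).

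**Figure D1:**
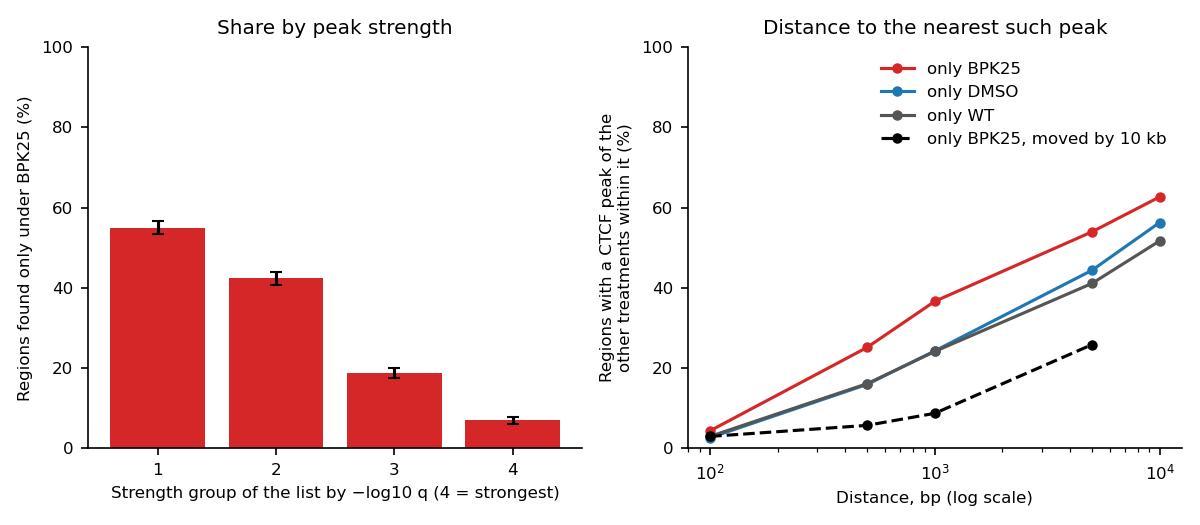
Left, the share of each strength group of the 14500 day 4 BPK25 CTCF regions that was found only under BPK25 (bars, Wilson 95% intervals), with groups ordered by −log10 q. Right, the share of the regions found in 1 treatment only with a CTCF peak of the other treatments within the distance in bp on the log axis; the dashed line stands for the 4462 BPK25 regions moved by 10 kb. The BPK25 bars fall from 54.9% to 6.95%, and the BPK25 line lies above the WT and DMSO lines at every distance shown.

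Many of the 4462 regions lay beside a control CTCF peak. A control peak of any day lay within 500 bp of 1123 of them (25.2%; 23.9% to 26.5%), against 5.74% when the same regions were moved by 10 kb. The median distance was 3.38 kb. At the far end, 2055 regions (46.1%) had no control CTCF peak within 5 kb and 14.5% had none within 50 kb. Of the regions found only in WT and only in DMSO, 16.1% and 16.0% had a CTCF peak of the other treatments within 500 bp. The regions themselves were scattered, with a median gap of 258 kb between neighbours, and 274 gaps (6.19%) were of at most 5 kb. Their share of a chromosome's regions ran from 23.5% on X to 39.9% on chromosome 4. All but 31 of the 4462 lay on numbered chromosomes and X.

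Regions on either side of the 1 bp limit were alike in strength. The 109 regions just inside, within 50 bp of a control CTCF peak, had a median −log10 q of 2.58 and a fold enrichment of 3.64. The 188 regions just outside, which overlapped a control peak by 1 to 50 bp, had 2.71 and 3.65. A day 4 DMSO MBD3 peak lay at 47.7% of the first and 47.9% of the second, a day 4 BPK25 MBD3 peak at 6.42% and 9.04%, and a day 9 BPK25 CTCF peak at 2.75% and 5.32%. At chr1:94187994-94188427 and chr1:7740350-7740519 (hg19) the control peak was directly adjacent and the regions counted as found only under BPK25, while chr17:81009659-81009945 and chr2:219270386-219270627 overlapped one by 1 bp and did not.

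Few of the 4462 regions carried CTCF on other days under BPK25. The day 9 BPK25 CTCF list held a peak at 128 of them (2.87%; 2.42% to 3.40%), against 19.4% of all 14500 and 26.7% of the remaining regions. Those 128 regions were 3.37% of the 3795 regions of the day 9 list. The day 0 BPK25 list held a peak at 24 (0.538%), against 1.23% of all 14500, and 5 regions had CTCF peaks on all 3 days of BPK25. Within each strength group the order was the same. In the weakest group the day 9 list held 1.16% of the regions found only under BPK25 and 5.14% of the remaining ones, and in the strongest 11.1% and 52.1%. The rule barred a day 9 control CTCF peak at the 4462 regions, while 22.0% of the remaining regions had one in DMSO and 16.4% in WT cells. The comparison with the remaining regions was thus tilted by the choice, also within strength groups. Regions found in 1 control treatment only, followed in their own day 9 list, had a CTCF peak there at 8.01% (WT) and 5.58% (DMSO), in lists of 8521 and 8469 regions.

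The 128 regions that had a CTCF peak on day 9 as well were stronger on day 4, with a median −log10 q of 5.64 against 3.13 at the other 4334. Peaks of most other lists were also more frequent at them, so this was not particular to MBD3 under BPK25. A day 4 BPK25 MBD3 peak lay at 29.7% of the 128 and at 9.53% of the 4334, and a day 9 BPK25 MBD3 peak at 33.6% and 8.70%. A day 4 DMSO MBD3 peak lay at 39.8% and 29.3%, and a day 9 DMSO MBD3 peak at 19.5% and 10.8%. TET2 on day 4 under BPK25 was at 6.25% and 1.25%. TET3 on day 4 under BPK25 was at 19.5% and 18.7%, so the TET3 shares were nearly equal. MBD3 in day 4 WT cells had the other order, at 25.8% and 32.0%. So did MBD3 in day 0 WT cells, at 3.91% and 4.38%, and TET2 in day 0 DMSO cells, at 0% and 0.046%.

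**Figure D2:**
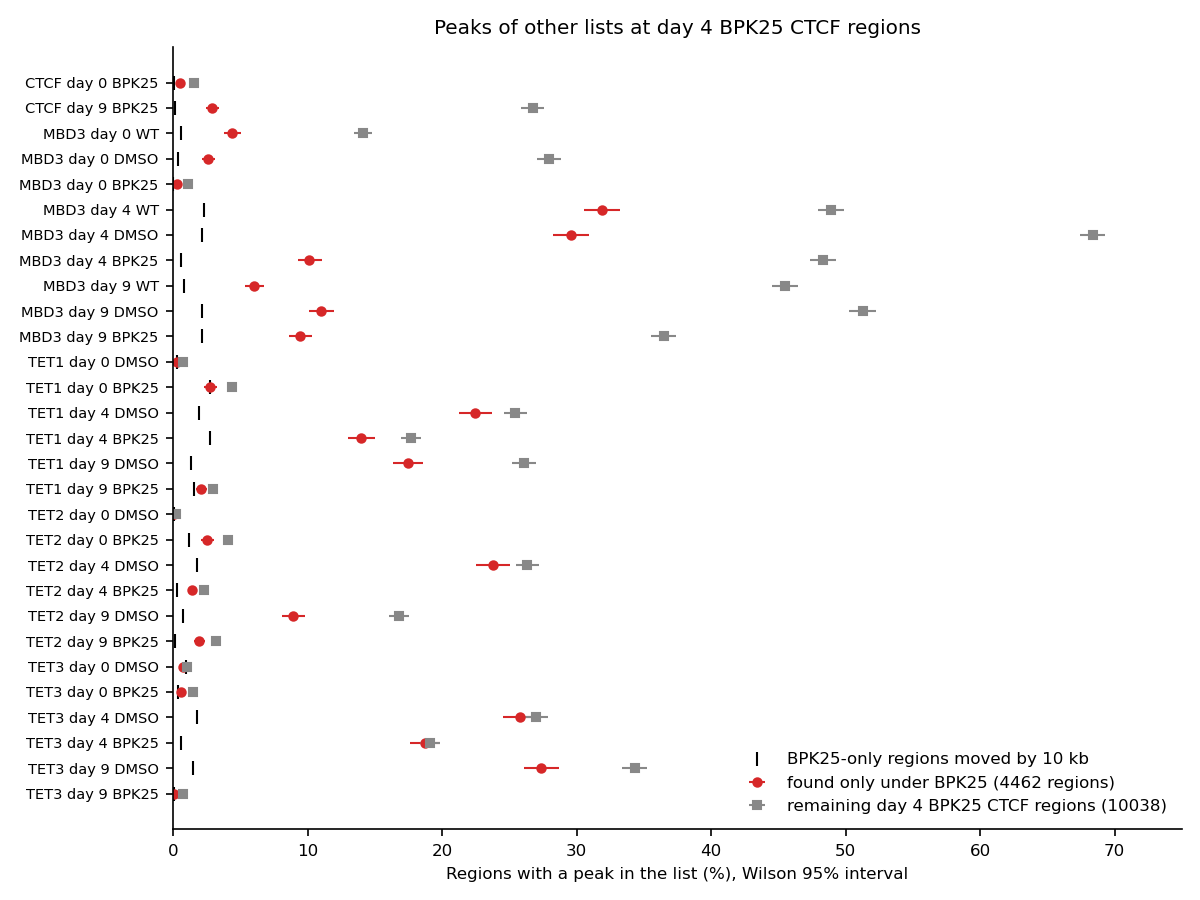
Each row is 1 peak list not used to choose the regions, and the axis gives the percentage of regions with a peak in it. Circles stand for the 4462 regions found only under BPK25, squares for the 10038 remaining regions (bars, Wilson 95% intervals), and ticks for the 4462 regions moved by 10 kb. MBD3 squares lie far to the right of the circles on day 4 and day 9, while day 4 TET circles and squares lie close together.

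MBD3, the NuRD subunit, was called at fewer of these regions than of the remaining ones in each of its lists. On day 4 an MBD3 peak lay at 31.9% of the 4462 in WT cells, at 29.6% in DMSO cells and at 10.1% (9.26% to 11.0%) in BPK25 cells. Over all 14500 regions these shares were 43.7%, 56.4% and 36.5%, and at the remaining regions 48.9%, 68.4% and 48.3%. At the 4462 regions moved by 10 kb they were at most 2.29%. Read from the other side, MBD3 peaks at the 4462 regions made up 2.81%, 2.88% and 2.92% of the WT, DMSO and BPK25 MBD3 lists of day 4, nearly the same part of lists of different length. The day 4 gap between the region sets was thus wider in both DMSO and BPK25 cells than in WT cells. Every remaining region had a control CTCF peak by construction, and which input each list was called against is not stated. Whether that adds to the gap was not tested.

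On day 9, MBD3 peaks lay at 6.03% of the 4462 in WT, 11.0% in DMSO and 9.41% in BPK25 cells, against 33.4%, 38.9% and 28.1% of all 14500. On day 0 they lay at 4.37%, 2.60% and 0.314%, against 11.1%, 20.1% and 0.841%. The shares in control cells were thus lower on days 0 and 9 than on day 4.

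Day 4 TET shares at these regions, unlike those of MBD3, lay within a few percentage points of the shares over all 14500, and below them. TET1 lay at 22.4% in DMSO and 14.0% in BPK25 cells, against 24.5% and 16.5% of all 14500. TET2 lay at 23.8% in DMSO cells and at 1.39% in BPK25 cells, against 25.5% and 2.02%. TET3 lay at 25.8% and 18.7%, against 26.6% and 19.0%. TET3 peaks at these regions made up 3.51% of the DMSO list and 6.53% of the shorter BPK25 list. The regions moved by 10 kb had a day 4 TET peak at 2.76% or less in each of these lists.

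The near equality did not hold among the weaker CTCF regions. In both sets the day 4 TET shares were highest in the weaker strength groups, where the 4462 were concentrated, and within those groups they were lower at the regions found only under BPK25. In the weakest group TET3 lay at 27.2% of them in DMSO cells and 19.6% in BPK25 cells, against 52.3% and 34.0% of the remaining regions. In the strongest group no day 4 TET list held more than 3.57% of either set.

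**Figure D3:**
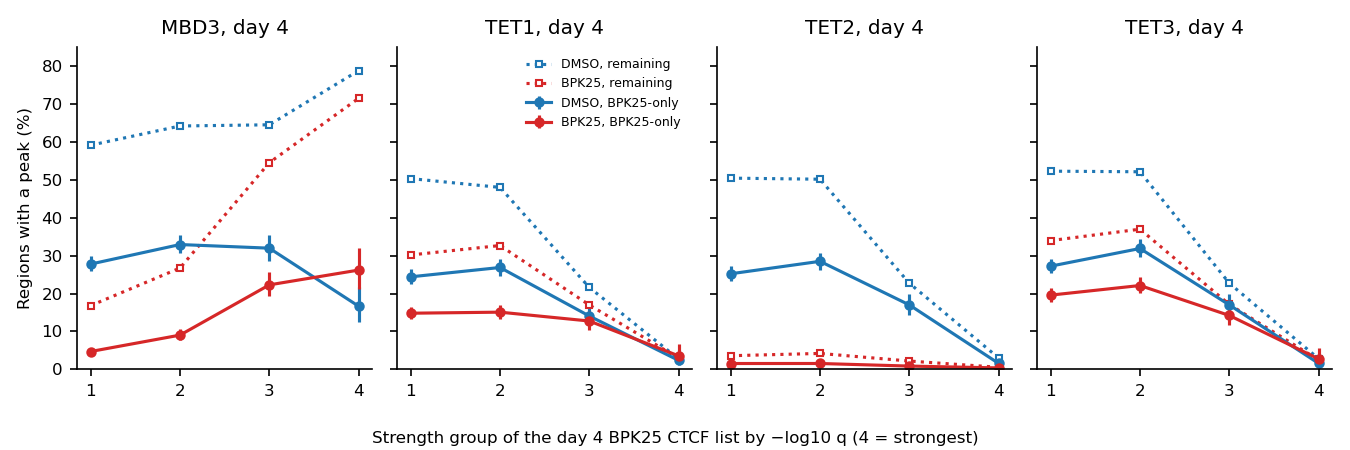
Percentage of regions with a day 4 peak of each antibody, by strength group of the day 4 BPK25 CTCF list. Filled circles and solid lines stand for regions found only under BPK25 (bars, Wilson 95% intervals), open squares and dotted lines for remaining regions, blue for DMSO and red for BPK25. TET lines descend to 3.57% or less in the strongest group, while the BPK25 MBD3 line at regions found only under BPK25 climbs from 4.72% to 26.2%.

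In whole lists, the day 9 TET peaks at these regions were mostly in DMSO cells. TET3 lay at 27.3% of the 4462 in DMSO cells and at 0.067% (3 regions) in BPK25 cells, whose whole TET3 list held 321 regions. Over all 14500 these shares were 32.2% and 0.51%. TET1 lay at 17.5% and 2.06%, against 23.4% and 2.7%, and TET2 at 8.90% and 1.9%, against 14.3% and 2.81%. On day 0 TET peaks were rare at these regions. TET1 lay at 0.291% in DMSO and 2.76% in BPK25 cells, against 0.586% and 3.86% of all 14500. TET2 lay at 0.045% and 2.51%, against 0.166% and 3.59%, and TET3 at 0.762% and 0.605%, against 0.952% and 1.2%. The highest of these, TET1 under BPK25, stood beside 2.73% at the regions moved by 10 kb, so it lay near the level of displaced regions.

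MBD3 and TET peaks met at the same regions in DMSO cells. Of the 4462 regions, 369 had peaks of all 3 TET proteins on day 4 in DMSO cells, 616 of 2, 874 of 1 and 2603 of none. A day 4 DMSO MBD3 peak lay at 70.2%, 51.5%, 35.4% and 16.7% of these. A day 4 BPK25 TET3 peak lay at 48.8%, 32.8%, 26.1% and 8.61%, and a day 9 DMSO TET3 peak at 60.2%, 47.1%, 33.3% and 16.0%, so regions with more TET proteins under DMSO held TET3 more often in other lists too. At the remaining regions BPK25 TET3 had the same order, at 63.2%, 43.6%, 29.5% and 2.55%, while DMSO MBD3 was at 87.0%, 70.2%, 61.1% and 64.1%, lowest with 1 TET protein. The day 4 BPK25 MBD3 list had another order, with 7.86%, 5.19%, 4.69% and 13.4% of the 4462. Its peaks were most frequent where no TET protein was called under DMSO in the whole list, since the remaining regions had 21.4%, 17.9%, 24.6% and 62.8%. In BPK25 cells MBD3 and at least 1 TET protein were called together on day 4 at 110 of the 4462 (2.47%) and at 703 of the remaining regions. TET alone was at 25.2% of the 4462 and 20.4% of the remaining regions, MBD3 alone at 7.64% and 41.3%, and neither at 64.7% and 31.3%.

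Whether BPK25 and DMSO lists differed at these regions was tested over the 12 pairs of antibody and day. Each pair is 1 pooled list against 1 other, so the p-values speak of these lists and not of replicate cultures. The share of the 4462 regions with a peak was lower under BPK25 in 10 of 12 pairs, with a mean difference, BPK25 minus DMSO, of -8.85 ± 10.1 percentage points (SD over pairs; exact two-sided sign-flip test, p = 0.0103, smallest possible 0.000488). With the lists of each pair cut to the shorter one the call was lost (-2.96 points, p = 0.166, exact sign-flip test). The 2 pairs with more under BPK25 in whole lists were day 0 TET1 and TET2, each by 2.47 points. At the remaining regions the mean was -13.6 points in whole lists and -5.56 points at equal length. The means of the region sets lay 4.79 points apart in whole lists and 2.60 at equal length. The means at the remaining regions and this gap carry no test. The rule required a BPK25 CTCF peak and no DMSO one at the 4462 regions, and a control CTCF peak at the others. The 4462 regions themselves were thus not chosen on equal terms for BPK25 and DMSO. The 12 pairs come from days 0, 4 and 9 only and were all scored on the same 4462 regions. They are thus not independent, and less so if pairs of a day were called against the same input. The sign-flip test treats each pair as free, so its p-values, with the smallest possible one, can be too small.

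At equal length 6 pairs were lower under BPK25 at the 4462 regions, 5 were higher and 1 was equal. The pairs parted by antibody and by day. Day 4 MBD3 was at 10.7% under DMSO and 10.1% under BPK25, and the intervals overlapped, while the remaining regions had 44.4% and 48.3%. TET1 kept lower shares under BPK25, 8.65% against 22.4% on day 4 and 1.26% against 17.5% on day 9. TET2 did so on day 4, with 1.39% against 11.8%. The remaining regions shared this, with 11.3% against 25.4% and 1.79% against 26.1% for TET1, and lower TET2 on day 4 as well. Day 4 TET3 turned, with 18.7% (17.6% to 19.9%) under BPK25 against 12.5% (11.6% to 13.5%) under DMSO, and at the remaining regions with 19.1% against 17.7%. These single pairs are 1 list against 1 list and carry no test.

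**Figure D4:**
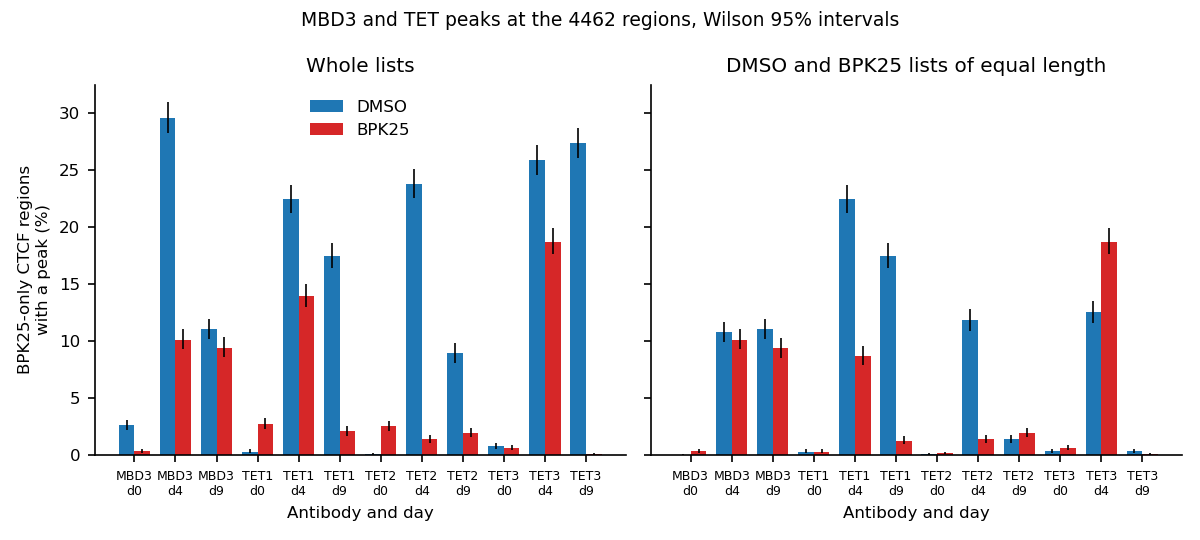
Percentage of the 4462 regions with a peak in the DMSO (blue) and BPK25 (red) list of each antibody and day, with whole lists on the left and with both lists of a pair cut to the shorter on the right (bars start at 0, whiskers are Wilson 95% intervals). Day 4 MBD3 stands at 29.6% and 10.1% on the left and at 10.7% and 10.1% on the right, and day 4 TET3 changes order.

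In BPK25 cells of day 4, MBD3 was called more often at CTCF regions of higher −log10 q, in both region sets. The strongest group also had the highest background, and whether that adds to the order was not tested. From the weakest to the strongest group, the day 4 BPK25 MBD3 list held a peak at 4.72%, 9.04%, 22.3% and 26.2% of the regions found only under BPK25, and the DMSO list at 27.8%, 32.9%, 32.0% and 16.7%. At the remaining regions BPK25 had 16.8%, 26.7%, 54.5% and 71.5%, and DMSO 59.1%, 64.2%, 64.5% and 78.8%. The order of the treatments thus turned in the strongest group at the 4462 regions and not at the remaining ones. With lists of equal length, at the 4462 regions DMSO had 9.24%, 12.6%, 10.6% and 11.9%, so BPK25 was lower in the weaker 2 groups and higher in the stronger 2. At the 252 regions of the strongest group, MBD3 on day 9 was at 40.5% in DMSO cells, 20.6% in WT cells and 10.3% in BPK25 cells, and on day 4 at 2.38% in WT cells. The 3373 remaining regions of that group had 87.0%, 81.5%, 49.1% and 42.5%, so each share was lower at the 252. From the weakest to the strongest group, day 9 BPK25 MBD3 was at 7.43%, 9.76%, 14.1% and 10.3% of the 4462 regions. It thus fell in the strongest group, while at the remaining regions it rose throughout, from 21.0% to 49.1%.

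Region by region, few MBD3 peaks of day 4 DMSO cells had a counterpart under BPK25. Of the 1319 regions with a day 4 DMSO MBD3 peak, 147 also had a BPK25 one (11.1%), against 54.3% at the remaining regions. Another 304 regions had one under BPK25 only. That 11.1% was near the 10.1% of all 4462 regions with a day 4 BPK25 MBD3 peak, a share that was 48.3% at the remaining regions. The day 4 BPK25 MBD3 list was also shorter, with 15456 regions against 46132 under DMSO. For TET1 the share of DMSO peaks also called under BPK25 was 34.3% against 50.4%, for TET2 3.87% against 7.34% and for TET3 37.4% against 55.0%. Over all 4462 regions a day 4 BPK25 peak lay at 14.0%, 1.39% and 18.7% for these, so the TET shares stood further above that level than MBD3 did. A BPK25 peak with no DMSO peak on day 4 was called for TET3 at 403 of the 4462 (9.03%), against 4.24% of the remaining regions, and for MBD3 at 6.81% against 11.2%.

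Regions found only in WT or only in DMSO on day 4 showed much the same company in some lists. The day 4 DMSO MBD3 list held a peak at 33.1% of the regions found only in DMSO, 33.0% of those found only in WT and 29.6% of those found only under BPK25. The day 4 DMSO TET3 list held 26.2%, 31.6% and 25.8%. The sets parted more in other lists. Day 4 BPK25 TET3 was at 18.7% of the regions found only under BPK25, 14.2% of those found only in WT and 7.56% of those found only in DMSO, and day 9 DMSO TET3 at 27.3%, 19.4% and 18.5%. The day 4 BPK25 MBD3 list held a peak at 10.1%, 3.25% and 7.02% of these sets in the same order. For the day 4 WT MBD3 list these shares were 31.9%, 47.3% and 26.7%, and for the day 0 BPK25 TET1 list 2.76%, 3.47% and 11.1%. Each set in the MBD3 list of its own treatment had 10.1% for BPK25, 33.1% for DMSO and 47.3% for WT, in lists of 15456, 46132 and 51109 regions.

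**Figure D5:**
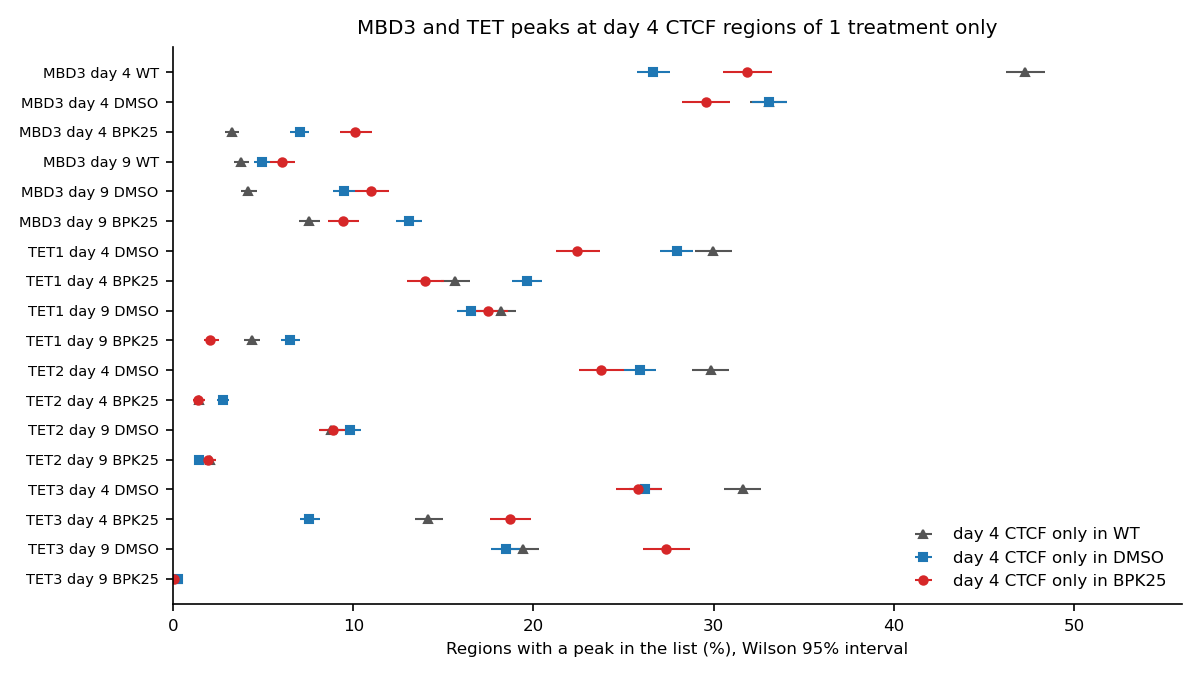
Percentage of day 4 CTCF regions found in 1 treatment only with a peak in each day 4 and day 9 MBD3 and TET list (triangles WT, 7774 regions; squares DMSO, 9033; circles BPK25, 4462; bars, Wilson 95% intervals). The sets lie close together in many lists. The circles lie to the right for day 4 BPK25 TET3 at 18.7% and day 9 DMSO TET3 at 27.3%, and the triangle for day 4 WT MBD3 at 47.3%.

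The 4462 regions were shared with the other proteins less than the rest of the list. At least 1 of the 15 MBD3 and TET lists of WT and DMSO cells held a peak at 3110 of them (69.7%), against 94.2% of the remaining regions. Another BPK25 list held one at 1885 (42.2%), against 76.9%. A peak in BPK25 lists and in none of those 15 was found at 295 (6.61%), against 2.22%. With the control CTCF lists left aside, no other list held a peak at 1057 (23.7%), against 3.62% of the remaining regions. The median number of other lists with a peak was 2, against 7 at the remaining regions. That number counts the control CTCF lists too. The rule barred their peaks at the 4462 and required at least 1 at each remaining region, so part of this gap was set by the choice. Peaks of MBD3 and all 3 TET proteins on day 4 under BPK25 met at 4 of the 4462, and each of those 4 also had a peak in a WT or DMSO list.

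The strongest single regions were of different kinds. The highest −log10 q, 267, was at chr1:569874-570245 (hg19), with a pileup of 857 fragments over a background of 191. No other list held a peak there and a control CTCF peak lay 279 bp away. As background, this stretch belongs to a known nuclear copy of mitochondrial DNA, where reads of mitochondrial origin can also map. The part of this in the peak was not tested. The second, at chr6:64282410-64282578, also had no peak in another list, with a −log10 q of 204 over a background of 118. The third, chr19:39138265-39138488 (−log10 q 171, background 121), had MBD3 peaks in 3 control lists. The fourth, chr1:26801634-26801809, had the highest fold enrichment of the set, 20.3, from 161 fragments over a background of 6.97, and its only other peak was of MBD3 in day 9 DMSO cells with a fold enrichment of 8.60. A further strong region with no peak elsewhere was chr9:135906269-135906510 (−log10 q 92.0).

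Regions with CTCF on more than 1 day of BPK25 included weak and strong ones. At chr1:249200258-249200655, with the most lists of all at 19 besides its own, CTCF peaks were called under BPK25 on days 0, 4 and 9, with −log10 q of 1.71, 15.0 and 8.71, and MBD3 in all 9 of its lists. A control CTCF peak lay 988 bp away. The regions chr19:39440657-39440952 and chr19:1905140-1905449 also had CTCF on all 3 days, with 7 and 12 other lists. Among regions with CTCF on day 9 but not day 0, the strongest on day 4 were chr9:135933199-135933451, chr20:48808228-48808513 and chr12:22199119-22199391, with −log10 q of 78.8, 75.3 and 74.4, each with 2 other lists. The first and second had a day 9 DMSO MBD3 peak and the third a day 4 BPK25 MBD3 peak.

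The regions with most lists were mostly weak CTCF regions. At chr13:114238289-114238898 and chr6:34495107-34495291, with 18 other lists each, the CTCF fold enrichment was 3.15 and 3.09, and at chr14:103571515-103571715, with 17, it was 2.49. At chr6:34495107-34495291 the day 4 DMSO MBD3 peak had a fold enrichment of 11.5 and the day 4 BPK25 TET1 peak 10.2 in their own lists. Each of these 3 regions had peaks of TET1, TET2 and TET3 on day 4 in DMSO cells, and the control CTCF peak nearest to it lay between 4.40 and 60.2 kb away.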

How the data were processed

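The deposited files were 36 narrowPeak lists, each called on 3 pooled replicates against a control, per the labels. Which input was the control is not given in the sources used here. Build hg19 and 5 tools are named without roles in the submitters' processing notes, namely MACS2 2.1.2, SAMtools 1.9, Bowtie2 2.3.4, bedtools 2.25.0 and FastQC 0.11.7. Antibodies are named in the labels for CTCF, MBD3 and TET1. For each peak the authors deposited a fold enrichment at the summit (a linear ratio to local background) and the −log10 of its p-value and q-value. All 3 are the authors' numbers for a peak, and here they served only to describe, rank or filter peaks inside a list. The highest q-value was 0.05.

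Summit rows of 1 interval (17812 in the day 4 BPK25 CTCF list) were merged into 1 region, which kept the values of its summit of highest −log10 q. Regions shared a peak when they overlapped by at least 1 bp. The pileup and background, the only proxy for depth, were solved for each summit from the deposited ratio and p-value, taking p as a Poisson tail. A whole pileup within 0.01 was found for all 4462 regions and for 99.1% of the remaining ones. Lists were made equal in length by highest −log10 q. Shares carry Wilson 95% intervals for counting error. The mean difference at the 4462 regions over 12 antibody and day pairs carries an exact two-sided sign-flip test. No p-value across peaks was computed.

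Named regions were, by rule, those of highest −log10 q, in most lists, with CTCF on days 0 and 9 or on day 9 alone of BPK25, with no other list, and nearest to the 1 bp limit, outside chromosome 8. The rule for regions with MBD3 and all 3 TET proteins under BPK25 and no control list found 0. The regions, lists and rules were chosen with earlier results of these data known. The tools used were scipy 1.17.1, pandas 2.3.3 and numpy 2.4.6, with matplotlib 3.10.9 for figures, in Python 3.11.15. Overlap was checked against bedtools 2.31.1, with 7825 regions shared with day 4 DMSO by both. Of 723 simulated pileups, 718 were recovered exactly. Alternatives covered strength cuts, overlap rules, control lists, list length, strength groups and leaving out an antibody or day. Sequence and annotation of hg19 were not used here, so motifs, genes and base composition were not analysed.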

Additional observations from a re-analysis of the deposited data

How the results depend on the processing

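The number of regions found only under BPK25, 4462, ranged from 3339 to 6426 when a control CTCF peak within 500 bp was barred, when overlap had to be 50% of both regions (6323), or when control lists were left out. Leaving out the day 4 DMSO list gave 6426 and the day 4 WT list 5446. The count was 2190 with −log10 q of at least 5 in all CTCF lists, 1119 with it in the BPK25 list, 1943 with a fold enrichment of at least 4 and 2055 with no control peak within 5 kb.

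The shares of these regions with a day 4 BPK25 MBD3, day 4 DMSO MBD3 and day 9 BPK25 CTCF peak were 14.4%, 45.6% and 5.36% with a peak allowed within 500 bp, and 8.96%, 22.4% and 2.33% with the CTCF summit inside the other peak. At a fold enrichment of at least 4 they were 12.1%, 28.2% and 3.86%. At a −log10 q of at least 5 the first and last were 22.4% and 6.17%. With no control CTCF peak within 5 kb, an alternative chosen after seeing the data, the MBD3 shares were 8.91% and 27.4%. The 10000 strongest regions of each list gave 7.55% for BPK25 and 6.12% for DMSO MBD3, in reverse order, and lists cut to the shortest gave 10.7% for DMSO. By strength group from the weakest, BPK25 MBD3 was 4.72%, 9.04%, 22.3% and 26.2%, DMSO MBD3 27.8%, 32.9%, 32.0% and 16.7%, and day 9 CTCF 1.16%, 5.13% and 11.1% in the first, the third and the strongest. MBD3 and BPK25 CTCF were lower at these regions than at the remaining ones in every alternative run. For CTCF the choice of regions favours that order. Day 4 BPK25 TET3 was lower in 6 of 11.

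The mean difference between BPK25 and DMSO (exact sign-flip test) missed the threshold at equal list length (-2.96 points, p = 0.166), without day 4 (-6.10, p = 0.164) and without day 9 (-6.87, p = 0.102). At the remaining regions the means under the same alternatives, given without a test, were -5.56, -13.0 and -9.83 points. The gap between the region sets, 4.79 points in whole lists and given without a test, was 2.60 at equal length, 2.14 with 500 bp, 4.63 at a −log10 q of at least 5, 2.50 with 2 control lists, 2.13 without MBD3, 5.63 without TET2, 5.67 without TET3, 6.90 without day 4 and 2.96 without day 9. The causes were not tested.

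No paired analysis was possible because the lists were called on pooled replicates, which also leaves no replicate to leave out. The lists state no depth and end at q = 0.05, so a missing peak is not shown to be missing binding.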
